A study of Mus musculus with 59 samples.

Results

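Cocaine self-administration was compared with saline self-administration in the VTA, or ventral tegmental area, a part of the midbrain whose dopamine neurons project to the striatum and the cortex. The libraries were taken by their column names: 15 of mice that took cocaine by vein and 9 of mice that took saline by vein, 24 of the 59 libraries of the series. Genes were kept where the mean over these 24 libraries was at least 1 FPKM (fragment counts scaled by transcript length and by library size), which left 13130 of 24346 gene symbols. Each difference below is the cocaine mean less the saline mean of log2(FPKM + 1), followed by its standard error (SE). This scale understates differences of genes with low values.

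All animals were male mice, and both groups went through intravenous self-administration, so the saline group shares the procedure and differs in what was taken. The other 35 libraries belong to 3 further paradigms (acute home cage injection, chronic home cage injection and conditioning), each with its own cocaine and saline groups. The labels give no strain, age, dose, number of sessions or interval between the last session and tissue collection. They do not say that the libraries came from separate animals, so p-values measure the spread between these libraries, which may be technical.

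Cocaine blocks the transporter that returns dopamine to the nerve terminal, and dopamine neurons of the VTA are among the first cells whose activity it alters. In self-administration the animal itself works for each infusion, so drug intake follows its own behaviour. The tissue block holds dopamine neurons beside GABA and glutamate neurons, glia and vessels, and the hypothalamus, the red nucleus and the interpeduncular region lie next to it. In such bulk tissue fewer cells of a type and less RNA per cell cannot be told apart.

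The dopamine markers matched the labelled tissue. Th, the rate-limiting enzyme of dopamine synthesis, ran from 131 to 499 FPKM in the cocaine libraries (median 231) and from 128 to 493 in the saline libraries (median 240). Slc6a3, the dopamine transporter that cocaine blocks, ran from 130 to 581 (median 253) and from 146 to 608 (median 265). Defining markers of serotonin neurons and of the cortex were low: the serotonin synthesis enzyme Tph2 reached at most 2.34 FPKM, and the cortical factor Tbr1 at most 0.416. Broader neuronal genes of those lists were not, and the summed FPKM of the forebrain and hippocampus list was 127 to 265 in the cocaine and 162 to 209 in the saline libraries. Genes of neighbouring regions, however, varied strongly between libraries. Pmch, the melanin-concentrating hormone precursor of lateral hypothalamic neurons, ran from 0.632 to 197 FPKM over the 24 libraries. Gh, growth hormone of the pituitary, was at or below 0.804 FPKM in 19 of the 24 libraries and reached 701 in 1 saline library.

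Sums of FPKM were 405214 to 457508 in the cocaine libraries and 398577 to 452672 in the saline libraries, and no 2 libraries held identical values. Of the variance, 20.99% lay on principal component 1, which placed saline library 0 (score -34.1) and cocaine library 6 (-29.7) far from the rest. Cocaine library 0 lay at the end of the second component (12.8% of the variance, score -30.9), and saline library 4 at the end of the third (8.30%, score 32.6). Library numbers are those of the deposited columns and carry no order. Read depth is unknown, so no counting error could be given.

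**Figure D1:**
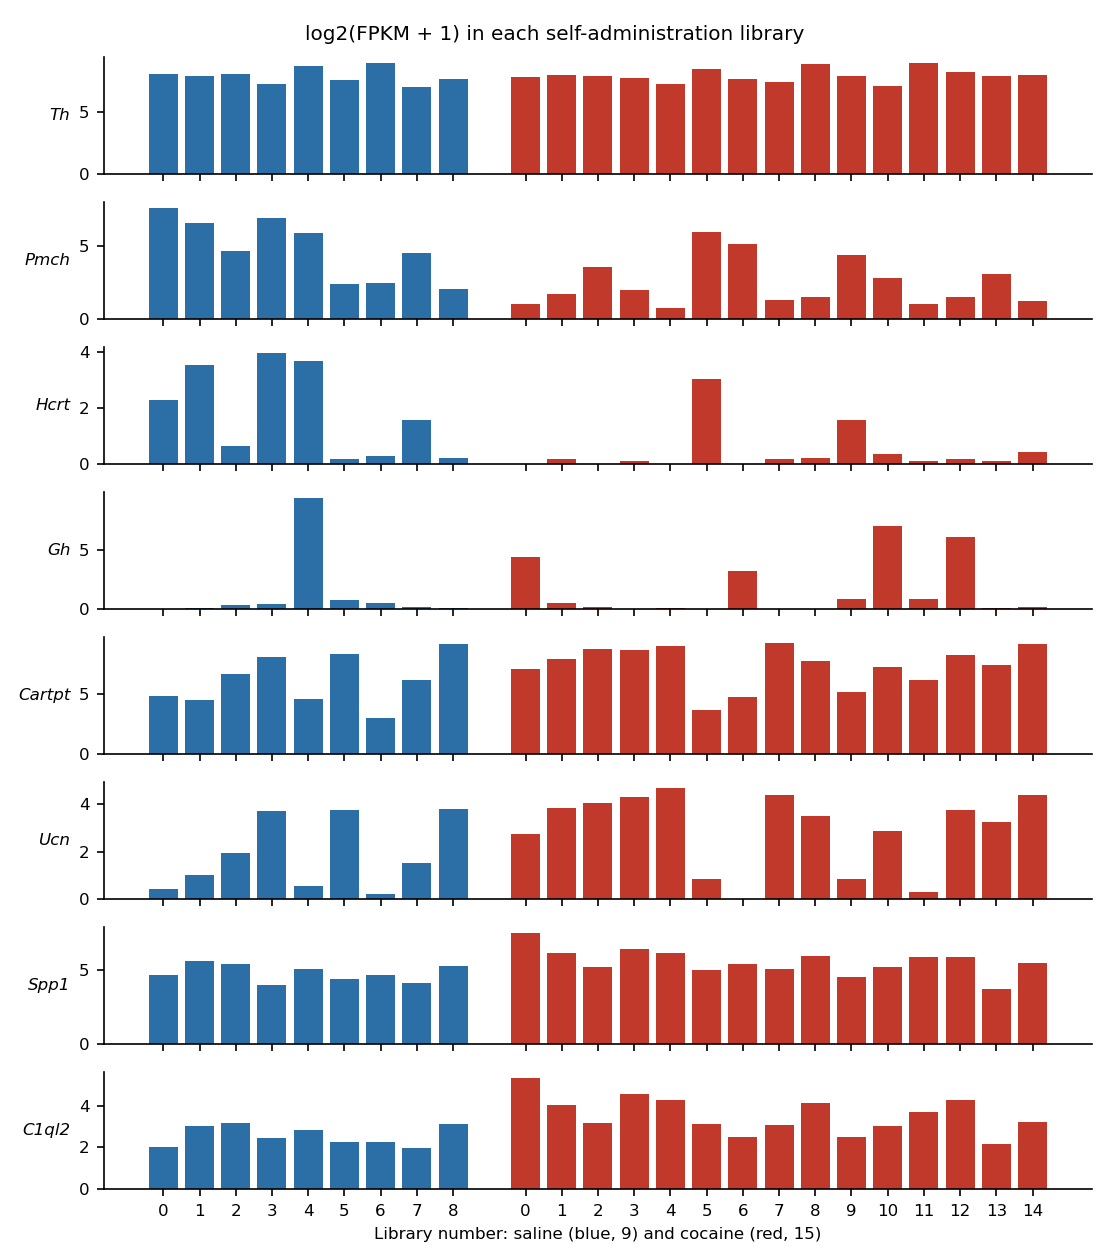
Each bar is 1 library, saline in blue (9) and cocaine in red (15), and each panel gives log2(FPKM + 1) of 1 gene. Th varied little in comparison with Pmch and Hcrt (hypothalamus), Gh (pituitary), Cartpt and Ucn (peptides), while Spp1 and C1ql2 were highest in cocaine library 0.

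The first question was which genes differed after self-administered cocaine. No gene passed an adjusted p of 0.05 over the 13130 tested (limma, Benjamini-Hochberg), and the lowest adjusted p was 0.999. At an unadjusted p under 0.05 there were 450 genes (3.43%), of which 212 lay higher after cocaine (1.61%) and 238 lower (1.81%). If none of the genes differed, 656.5 would be there on average. A further 1.3-fold limit left 24 genes (0.183%), 9 higher and 15 lower. In no gene (0%) were the 2 groups free of overlap. The precision on the log2(FPKM + 1) scale was nevertheless fair, with a median SE of 0.07. For 12067 genes (91.9%) the 95% interval on that scale lay wholly within 1.3-fold in either direction. For genes with low values this limit is a wider one in FPKM.

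The count at an unadjusted p under 0.05 was sensitive to single libraries. It was 923 without saline library 2 and 792 without cocaine library 6. The count with the 1.3-fold limit was 47 without cocaine library 6, 40 without cocaine library 13 and 37 without saline library 2. Without the 4 libraries that lay at the ends of the components, a choice made after seeing the data, the counts were 503 and 20. No gene passed the adjusted threshold in any of these fits.

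**Figure D2:**
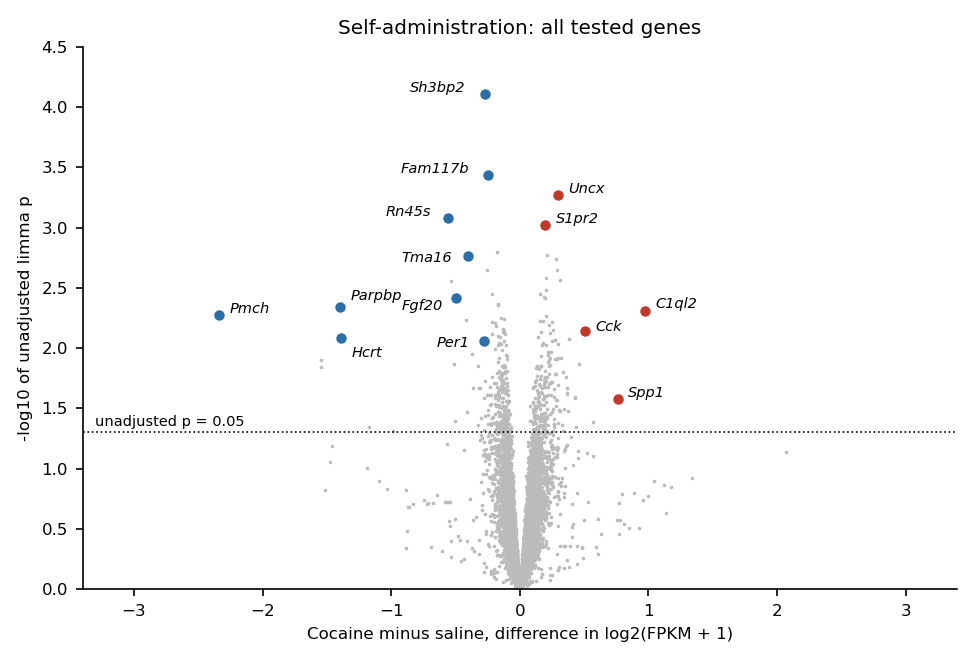
Each point is 1 of the 13130 tested genes: the horizontal axis gives the difference between cocaine and saline in log2(FPKM + 1), the vertical axis -log10 of the unadjusted limma p, and the dotted line p = 0.05. Pmch, at -2.34, lies farthest to the left of the named genes, and Sh3bp2 is at the top.

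Since nothing passed the threshold, the genes named from here on describe the extremes of this comparison, and each was chosen by its p or by its list. Sh3bp2, an adaptor protein that links immune-type receptors to SRC and SYK kinases, had the smallest p. It ran from 1.75 to 2.62 FPKM after cocaine (median 2.07) and from 2.26 to 3.30 after saline (median 2.79). All 15 cocaine libraries lay below the saline median and 12 of them below every saline library. The difference was -0.27 ± 0.058 (unadjusted limma p = 7.72e-05). The gene lies at chr5:34525838-34563641 on the plus strand (GRCm38) and is protein coding.

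Fam117b, a gene of poorly known function on chromosome 1 (59913006 to 59985346), came next among the lower genes. It ran from 17.2 to 25.2 FPKM after cocaine (median 21.05) and from 21.4 to 29.4 after saline (median 25.7), and again all 15 cocaine libraries were under the saline median. The difference was -0.25 ± 0.061 (unadjusted limma p = 0.000365). Its exons overlap those of Ica1l on the other strand, so reads of the pair could be shared. In the fit that pools the spread of all 8 groups of the series, Sh3bp2 and Fam117b did pass, with limma adjusted p of 0.00478 and 0.0210.

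Rn45s, the precursor of ribosomal RNA, ran from 157 to 359 FPKM after cocaine (median 222) and from 183 to 472 after saline (median 397), a difference of -0.56 ± 0.148. Every cocaine library lay below the saline median, and 5 of 9 saline libraries exceeded every cocaine library. Tma16, a factor of ribosome assembly, differed by -0.40 ± 0.115, with 7.72 to 17.0 FPKM after cocaine and 11.8 to 25.6 after saline.

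Among the genes that lay higher after cocaine, Uncx, a homeobox factor of midbrain neurons, had the smallest p. It ran from 1.34 to 2.68 FPKM after cocaine (median 2.25) against 0.917 to 1.91 after saline (median 1.65), and 12 of 15 cocaine libraries exceeded every saline library. The difference was 0.30 ± 0.076 (unadjusted limma p = 0.000537). S1pr2, a receptor for sphingosine-1-phosphate, was above the saline median in all 15 cocaine libraries (1.04 to 1.52 FPKM against 0.775 to 1.29), with a difference of 0.20 ± 0.053. Hip1, an adaptor of clathrin-coated vesicles, differed by 0.21 ± 0.060, Nipal4, a putative magnesium transporter, by 0.28 ± 0.081, and Trim36, a ubiquitin ligase, by 0.29 ± 0.085.

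**Figure D3:**
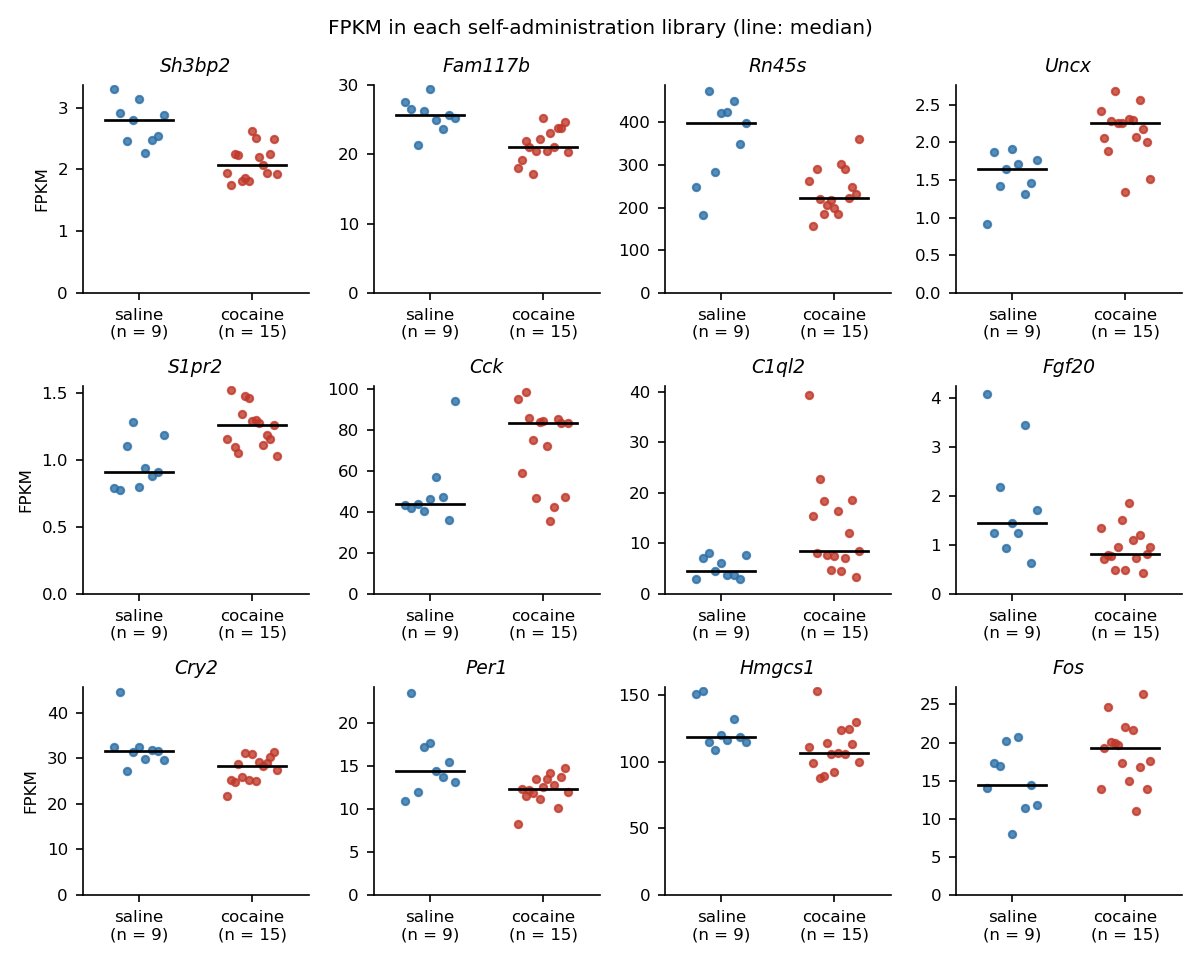
Each point is the FPKM of 1 library and each line a group median, for 12 genes described in the text. The groups overlap in every panel, and for Sh3bp2 12 of the 15 cocaine libraries lie below every saline library.

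Pmch had the most negative difference of all tested genes. It ran from 0.632 to 61.8 FPKM after cocaine (median 2.18) and from 3.15 to 197 after saline (median 24.3). It was highest in saline libraries 0, 3 and 1 (197, 118 and 93.4 FPKM), and the difference was -2.34 ± 0.759 (unadjusted limma p = 0.00532). Hcrt, the orexin precursor of the same region, was listed at 0 in 4 cocaine libraries and reached 7.18 FPKM (median 0.126), against 0.136 to 14.9 after saline (median 2.01), a difference of -1.39 ± 0.481. Parpbp, a DNA repair factor, differed by -1.40 ± 0.444, but its exons overlap those of Pmch on the opposite strand (chr10:88091432-88146941 and chr10:88091072-88092375). Whether the counting used strand is not given in the sources used here, so the pair cannot be told apart. Snora43, a small nucleolar RNA, lay between Pmch and Parpbp at -1.55 ± 0.570 and was listed at 0 in 7 cocaine libraries and 1 saline library.

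Of the 14 tested members of the list for hypothalamus and mammillary body, 12 lay lower after cocaine. Parpbp, Pmch and Hcrt were the 3 at an unadjusted p under 0.05 (1.81% of all genes were lower by that limit). Parpbp overlaps Pmch, so the 2 are not separate members in these counts, in the list's level or in the covariate built from it. The median difference was -0.13, against -0.00 over all tested genes, where 50.6% lay lower. The summed FPKM of the list was 50.5 to 293 in the cocaine libraries and 61.8 to 287 in the saline libraries, ranges that overlap almost wholly, while the median of the list's mean level was 1.59 and 2.12 in log2(FPKM + 1). Without cocaine library 6 the members at that limit were 5. Oxt and Avp, hormone genes of the hypothalamus, were listed at 0 in 11 and 10 cocaine and in 8 and 7 saline libraries. Foxb1, a factor of the mammillary body, ran from 0.643 to 9.76 and from 0.947 to 5.28 FPKM, with a difference of -0.18 ± 0.248. With the list's level as a covariate, which holds Pmch, Hcrt and Parpbp themselves, the genes at an unadjusted p under 0.05 numbered 211 in place of 450, and with the level of Pmch 139. Both covariates also ended calls or turned medians of several lists below, as given there, and the part of the neighbouring tissue was not tested further.

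Of the genes of other neighbouring regions, most on the list for thalamus, red nucleus and pontine nuclei lay lower after cocaine. Pax6, a homeobox factor on that list, lay lower (-0.37 ± 0.136). Shox2, a homeobox factor not on the list, lay lower too (-0.51 ± 0.193). Spp1, osteopontin, which large projection neurons express, lay higher (0.76 ± 0.321), with 12.3 to 181 FPKM after cocaine (median 44.1) and 15.1 to 48.0 after saline (median 24.8). Of the 11 tested members of that list, 8 lay lower and 3 higher (50.6% of all genes lay lower), and the median difference was -0.11. At an unadjusted p under 0.05 were 2, 1 in each direction (3.43% of all genes). That count was 6 without saline library 2 and 0 with either covariate.

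C1ql2, a secreted organiser of excitatory synapses, showed a difference of 0.97 ± 0.312 (unadjusted limma p = 0.00488). It ran from 3.43 to 39.4 FPKM after cocaine (median 8.45) and from 2.91 to 8.01 after saline (median 4.56), and 9 cocaine libraries exceeded every saline library. Its relative C1ql4 differed by 0.57 ± 0.264. Nefl, the light neurofilament subunit, ran from 109 to 575 FPKM after cocaine (median 243) and from 145 to 267 after saline (median 155), a difference of 0.44 ± 0.207. The exons of Nefl overlap those of Nefm on the other strand. Cocaine library 0 was the highest for C1ql2, Nefl and Spp1, and without it the differences were 0.84, 0.35 and 0.62. Htr1d, a serotonin receptor of the inhibitory G protein class, differed by 0.46 ± 0.175, and Gjb1, the connexin of myelin, by 0.38 ± 0.134. Tesc, a calcium-binding regulator of ion exchange, and Foxd2, a forkhead factor, both differed by 0.43 ± 0.183.

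Most clock genes lay lower after cocaine. In the circadian clock, CLOCK and ARNTL bind the E-box, a short DNA element, in the promoters of the period and cryptochrome genes and of output factors, and the protein products of the first 2 families then repress that activity. The list of 19 clock genes had 16 members lower and 3 higher, 8 of them lower and none higher at an unadjusted p under 0.05 (1.81% of all genes were lower by that limit), and a median difference of -0.13. The members on the repressor and output side were the lower ones. The activators lay near 0, with -0.00 ± 0.056 for Clock, 0.01 ± 0.071 for Arntl and 0.03 ± 0.068 for Npas2.

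Cry2, a cryptochrome and repressor, ran from 21.7 to 31.4 FPKM after cocaine (median 28.3) and from 27.3 to 44.6 after saline (median 31.7). All 15 cocaine libraries lay below the saline median, and the difference was -0.22 ± 0.068 (unadjusted limma p = 0.00358). Per1, a period gene that glucocorticoids and neuronal activity also induce, ran from 8.24 to 14.8 FPKM (median 12.3) against 10.9 to 23.5 (median 14.4), a difference of -0.28 ± 0.098. Bhlhe41 and Bhlhe40, basic helix-loop-helix repressors that bind the same E-box, differed by -0.18 ± 0.050 and -0.19 ± 0.069. Output factors of the PAR leucine zipper family followed, Tef at -0.13 ± 0.044 and Hlf at -0.12 ± 0.055. The remaining members at that limit were Per3 (-0.17 ± 0.071) and Ciart, a repressor of CLOCK and ARNTL (-0.28 ± 0.117).

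The promoters of 2 of these genes are printed because they carry the element through which the clock acts on its own repressors. The letters searched were CACGTG, which reads the same on both strands, in the 250 bases before each RefSeq start (build GRCm38.p6). Some genes have several starts (32851 windows for 27025 genes), and a gene counted where any of its windows matched. Each window printed is the first of its gene with a match. The element was present in 5 of the 17 clock genes with a promoter available (29.4%: Bhlhe41, Ciart, Cry1, Per1 and Tef). Cry2, Bhlhe40, Hlf and Per3 were not among these matches. Of the lists described below, 3 of 14 sterol synthesis genes (21.4%) and 3 of 18 immediate early genes (16.7%) held it. The share was 10.1% of the 9921 tested genes with a promoter and 6.86% of all 27025 genes. The capitals mark the element, which occurs 1 time in the Per1 window (chr11:69098699-69098948, plus strand) and 3 times in the Ciart window (chr3:95882229-95882478, minus strand). The Per1 window lies inside the annotated span of the gene (chr11:69095217-69109960) and not upstream of it. A match is a description of these letters and not of binding.
Per1: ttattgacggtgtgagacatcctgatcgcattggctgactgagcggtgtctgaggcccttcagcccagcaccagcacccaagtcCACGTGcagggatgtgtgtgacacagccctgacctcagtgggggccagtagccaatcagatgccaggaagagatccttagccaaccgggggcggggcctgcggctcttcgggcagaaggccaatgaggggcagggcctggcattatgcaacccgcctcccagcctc
Ciart: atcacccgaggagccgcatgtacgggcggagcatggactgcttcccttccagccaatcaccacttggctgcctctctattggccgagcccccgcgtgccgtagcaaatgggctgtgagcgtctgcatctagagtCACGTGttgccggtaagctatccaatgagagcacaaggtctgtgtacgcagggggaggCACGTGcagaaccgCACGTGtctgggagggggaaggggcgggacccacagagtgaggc

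The mean level of the clock list was 3.504 to 3.75 in the cocaine libraries (median 3.63) and 3.57 to 3.88 in the saline libraries (median 3.73), so the groups overlapped. Without saline library 7 the members at an unadjusted p under 0.05 were 5 rather than 8, and without the 4 end libraries 10. With the level of the hypothalamus list as a covariate they were 4, and with Pmch 3. The time of day of tissue collection was not in the labels.

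Sterol synthesis genes lay lower too, by small amounts. Brain cells make their own cholesterol from acetyl-CoA, and SREBF2 drives the genes of that pathway when sterols are scarce. All 21 tested members of the list lay lower after cocaine, where 50.6% of all genes did. At an unadjusted p under 0.05 were 4 of them (1.81% of all genes were lower by that limit). The median difference was -0.13. Such genes share a regulator and are not independent of each other.

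Hmgcs1, an early synthase of the pathway, ran from 87.8 to 153 FPKM after cocaine (median 106) and from 108 to 153 after saline (median 118), a difference of -0.19 ± 0.082. Lss, which closes the sterol rings, differed by -0.21 ± 0.095, and Dhcr7, which completes cholesterol, by -0.17 ± 0.079. Mvd, a decarboxylase of the mevalonate steps, had the largest difference of the list (-0.25 ± 0.136) and Srebf2 itself was at -0.03 ± 0.097. The exons of Lss overlap those of a gene on the opposite strand.

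The mean level of the list was 4.73 to 5.14 in the cocaine libraries (median 4.99) and 4.85 to 5.48 in the saline libraries (median 5.01), and saline libraries 1 and 0 were the highest (5.48 and 5.25). The medians of the groups were close to each other. The members at an unadjusted p under 0.05 numbered 0 without saline library 1, 1 without saline library 0, saline library 6 or cocaine library 14, and 2 without any one of cocaine libraries 0, 1, 3, 4, 6, 7 and 8. They numbered 7 without saline library 4 and 8 without saline library 2. With the level of the hypothalamus list or of Pmch as a covariate the number was 0, and the median difference was -0.10 and -0.05.

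The Hmgcs1 promoter is printed as the member of this list with a match to a sterol regulatory element. The letters TCACNCCAC were searched on both strands of the same kind of window. They were found in 1 of 14 members with a promoter (7.14%), in 1.28% of the tested genes and in 1.22% of all genes. The window is chr13:119690101-119690350 on the plus strand, and the capitals mark the match.
Hmgcs1: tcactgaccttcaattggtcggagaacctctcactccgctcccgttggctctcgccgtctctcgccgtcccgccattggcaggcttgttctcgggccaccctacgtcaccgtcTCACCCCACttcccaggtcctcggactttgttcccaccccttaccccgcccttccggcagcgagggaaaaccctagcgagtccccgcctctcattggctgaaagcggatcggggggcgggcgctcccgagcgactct

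**Figure D4:**
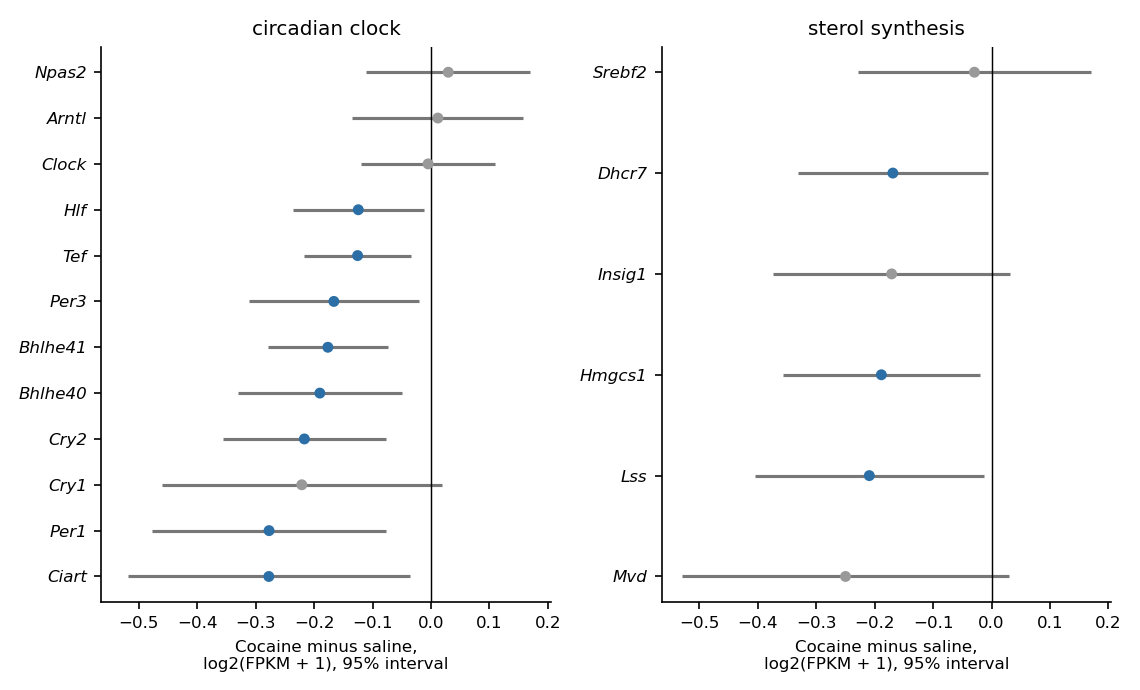
Points are differences between cocaine and saline in log2(FPKM + 1) for the 12 clock genes (left) and the 6 sterol synthesis genes (right) named in the text, and lines are 95% intervals. Blue points are those at an unadjusted limma p under 0.05, 8 clock and 3 sterol genes, all of them lower after cocaine.

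Immediate early genes, which neurons and glia transcribe within minutes of a stimulus, lay slightly higher. Of 24 tested members 17 were above 0 (49.4% of all genes were), 2 at an unadjusted p under 0.05 (1.61% of all genes were higher by that limit), and the median difference was 0.13. Fos ran from 11.0 to 26.4 FPKM after cocaine (median 19.3) and from 7.96 to 20.8 after saline (median 14.4), with a difference of 0.32 ± 0.140. Fosb, whose truncated product accumulates with repeated drug exposure in the striatum, ran from 1.35 to 3.18 (median 2.25) against 0.571 to 2.81 (median 1.74), a difference of 0.26 ± 0.121. Junb and Jun, their partners in the AP-1 dimer, differed by 0.36 ± 0.187 and 0.20 ± 0.112, while Egr1 was at -0.25 ± 0.164. Neither Fos nor Fosb stayed at that limit without any one of cocaine libraries 2 and 12 and saline libraries 6 and 8, where the list's count was 0, and it was 1 without cocaine library 7 or 9 or saline library 4. With either the hypothalamus or the Pmch covariate the list's count was 1. The exons of Junb overlap those of Prdx2.

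Glucocorticoid-induced genes, read as a sign of stress hormone action, lay lower in 19 of 24 members (50.6% of all genes did) with a median difference of -0.08. That median was 0.10 with library weights and 0.00 without the 4 end libraries, so its sign was not stable, and it was -0.02 without saline library 4. By an unadjusted p under 0.05, 1.81% of all genes were lower. Per1 and Zbtb16, a zinc finger repressor induced by the hormone (-0.32 ± 0.129), were the 2 list members at that limit. Their count was 4 without cocaine library 6 or 11 and 0 with either the hypothalamus or the Pmch covariate. Pdk4, a kinase that holds back pyruvate oxidation, differed by -0.29 ± 0.146. Sgk1, the kinase most often used as a readout, ran from 129 to 222 FPKM after cocaine (median 186) and from 157 to 262 after saline (median 201), a difference of -0.07 ± 0.090. Fkbp5, the receptor's co-chaperone, was at -0.17 ± 0.115.

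Of the list of neuropeptides and their receptors, which vary among neuron subtypes of the midbrain, 15 of 21 lay above 0 (49.4% of all genes did), 3 of them at an unadjusted p under 0.05 (1.61% of all genes). The median difference was 0.12, 0.04 with the Pmch covariate, where 1 member was at the limit, and 0.07 without cocaine library 6. Cck, cholecystokinin, which many dopamine neurons release, was the leading one. It ran from 35.7 to 98.4 FPKM after cocaine (median 83.0) and from 36.0 to 94.0 after saline (median 43.9), a difference of 0.51 ± 0.173 (unadjusted limma p = 0.0072). The 13 cocaine libraries above the saline median sat beside 8 saline libraries at or below 57.1 FPKM, and saline library 8, at 94.0, lay within the cocaine group's upper range. Vip, vasoactive intestinal peptide, differed by 0.30 ± 0.121, and Crhr1, the receptor for corticotropin-releasing hormone, by 0.25 ± 0.098. With the level of the hypothalamus list as a covariate Cck differed by 0.34, and none of the list's members was at the limit.

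The peptides Ucn and Cartpt, of the same list but best known from the Edinger-Westphal nucleus at the midline, had large differences with larger errors. Ucn was listed at 0 in 1 cocaine library and reached 25.1 FPKM (median 10.4), against 0.153 to 12.9 after saline (median 1.88), a difference of 1.04 ± 0.659. Cartpt ran from 11.3 to 615 FPKM (median 215) against 7.05 to 563 (median 72.6), a difference of 1.18 ± 0.776. In both groups the libraries low in one of the 2 peptides were low in the other, as cocaine libraries 5 and 6 and saline library 6 show in the bars by library.

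Fibroblast growth factors gave a mixed picture. Fgf20, which supports dopamine neurons, ran from 0.434 to 1.86 FPKM after cocaine (median 0.806) and from 0.634 to 4.06 after saline (median 1.45). The cocaine libraries were below the saline median in 13 of 15 cases, and the difference was -0.50 ± 0.157 (unadjusted limma p = 0.00381). Its exons overlap those of Micu3. Fgf18, Fgf11 and Fgf10 lay on the other side, at 0.27 ± 0.101, 0.37 ± 0.155 and 0.27 ± 0.126. With either covariate 1 gene of the list was at an unadjusted p under 0.05. The other 9 of the 13 tested ligands and receptors did not reach an unadjusted p under 0.05 (3.43% of all genes did). The receptors Fgfr1, Fgfr2 and Fgfr3 were at 0.05 ± 0.067, 0.06 ± 0.088 and -0.04 ± 0.116.

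Genes of dopamine neurons showed no shared direction. Of 25 tested markers 10 lay above 0 (49.4% of all genes did). At an unadjusted p under 0.05 was 1, Fgf20 (3.43% of all genes were). The median difference was -0.02 (0.10 with library weights and 0.08 without the 4 end libraries). Th differed by 0.03 ± 0.226, with a 95% interval from -0.44 to 0.49, Slc6a3 by -0.20 ± 0.255 and Slc18a2, the vesicular monoamine transporter, by -0.09 ± 0.237. Drd2, the inhibitory autoreceptor, ran from 27.6 to 65.6 FPKM (median 38.5) and from 28.5 to 71.1 (median 35.8), a difference of -0.00 ± 0.150. The mean marker level varied among libraries in both groups, from 4.07 to 5.42 after cocaine and from 4.12 to 5.42 after saline. Of the 10 receptor and turnover genes tested none reached the limit, with Maoa, a monoamine-degrading enzyme, at -0.07 ± 0.056 and Drd1 at -0.10 ± 0.099.

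Inhibitory and excitatory transmission genes differed little, though most lay lower. Of 22 GABA genes 5 lay above 0 (49.4% of all genes did), with a median of -0.04. By an unadjusted p under 0.05, 1.81% of all genes were lower. Here 2 receptor subunits were, Gabrg1 (-0.21 ± 0.084) and Gabra4 (-0.27 ± 0.123), whose exons overlap those of Gabrb1. Without any one of cocaine libraries 1, 3, 4, 7 and 10 and saline libraries 0, 6 and 7 that count was 1, and with either covariate it was 0. Gabra4 ran from 7.08 to 21.3 FPKM after cocaine (median 10.2) and from 10.4 to 17.8 after saline (median 12.6). Gad2, a GABA synthesis enzyme, was at -0.10 ± 0.073. None of the 35 glutamate genes reached the limit (11 above 0, median -0.02, and 0.00 with either covariate; 3 at the limit without cocaine library 6), and Gria3, an AMPA receptor subunit, was at 0.14 ± 0.076.

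Among 36 potassium channel genes 16 lay above 0 (49.4% of all genes did) with a median of -0.01. At an unadjusted p under 0.05 were 3 (3.43% of all genes). Kcnc2, the fast Kv3 channel of rapidly firing neurons, ran from 18.4 to 42.6 FPKM after cocaine (median 26.0) and from 19.2 to 22.7 after saline (median 21.2), and 11 of 15 cocaine libraries exceeded every saline library (0.30 ± 0.107). Kcnab1, an auxiliary subunit, differed by 0.37 ± 0.152, and Kcnk2, a leak channel, by -0.16 ± 0.068. Their count was 7 in place of 3 without cocaine library 6 and 0 with either covariate. In the vesicle release list, 2 of 33 genes lay lower at the same limit (1.81% of all genes did), Vamp2, a vesicle SNARE (-0.15 ± 0.058), and Rab3c (-0.19 ± 0.087). Without cocaine library 6 or saline library 4 the list's count was 4, and with Pmch as a covariate it was 1. Neither the 8 opioid genes nor the 12 nicotinic and muscarinic receptor genes had a member there. Of 47 chromatin regulators 14 lay above 0 (49.4% of all genes did). Smyd3 (-0.13 ± 0.057) and Jarid2 (-0.12 ± 0.054) were the 2 at the limit, where 1.81% of all genes were lower. That count was 6 without saline library 2 and 0 without saline library 7 or with either covariate.

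Housekeeping groups leaned by small amounts. Of 76 nuclear genes of oxidative phosphorylation 70 lay above 0 (49.4% of all genes), with a median of 0.06 and no member at an unadjusted p under 0.05. Ndufa12, a complex I subunit, ran from 162 to 266 FPKM after cocaine (median 194) and from 163 to 210 after saline (median 169), a difference of 0.14 ± 0.069. The mean level of the list was 7.42 to 8.04 in the cocaine libraries and 7.36 to 7.81 in the saline libraries, with medians of 7.63 and 7.63. Cocaine library 0 was the highest, and without it the list's median was 0.03. Of 19 ER chaperones 16 lay above 0 (median 0.07) and of 20 heat shock genes 15 (median 0.05), none of either at the limit (4 chaperones without saline library 2), whereas 25 of 78 cytosolic ribosomal protein genes did (median -0.02). With the hypothalamus and the Pmch covariate the heat shock median was -0.01 and -0.02, and the ribosomal one 0.00 and 0.01. The ER chaperone median was then 0.03 and 0.01, with 1 member at the limit in each fit.

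Glial and vascular markers showed small and mixed values. Of 20 microglial genes 4 lay above 0 (median -0.07), none at an unadjusted p under 0.05, with Gpr34, a lysophospholipid receptor, at -0.27 ± 0.147 and Trem2, a lipid sensor, at -0.22 ± 0.132. Of 21 astrocyte genes 7 lay above 0 (median -0.08), with Fabp7, a lipid-binding protein (-0.27 ± 0.132), and Gja1, the gap junction connexin (-0.20 ± 0.0997). The astrocyte genes at that limit numbered 1 (Fabp7), where 3.43% of all genes were. They numbered 4 without cocaine library 6 and 0 without saline library 8, among others, or with either covariate. The microglial median was 0.00 with the hypothalamus covariate. Oligodendrocyte genes were above 0 in 14 of 20 (median 0.04, and -0.01 and -0.02 with the hypothalamus and the Pmch covariate), and Mbp, a myelin protein, was at -0.02 ± 0.135. Endothelial and pericyte genes were above 0 in 16 of 22 (49.4% of all genes were), with a median of 0.07. That median was -0.00 without saline library 2, 0.15 without saline library 4 and -0.02 with Pmch as a covariate. Ly6c1, a surface protein, differed by 0.18 ± 0.086 and was the 1 member at the limit, where 3 were without saline library 4 and 0 without any one of 15 single libraries or with either covariate. H2-Aa, a class II histocompatibility gene, ran from 0.205 to 2.58 FPKM after cocaine and from 0.161 to 4.30 after saline (-0.50 ± 0.231).

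The second question was whether the difference in self-administration departed from that in the 3 other paradigms. It was tested as the self-administration difference minus the mean of the acute, chronic and conditioning differences, in 1 fit of all 8 groups and over 13186 genes. No gene passed an adjusted p of 0.05 (limma). At an unadjusted p under 0.05 there were 372 genes (2.82%), 216 of them lower in self-administration (1.64%) and 156 higher (1.18%). Sh3bp2 came closest: it differed by -0.31 ± 0.060 (limma adjusted p = 0.0563), with differences of 0.00, -0.00 and 0.10 in the acute, chronic and conditioning paradigms. With quantile normalization or without limma's trend and robust options its adjusted p was 0.0186 and 0.0362, and it was the 1 gene that passed.

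Polr3e, a subunit of RNA polymerase III, followed at -0.27 ± 0.060 (limma adjusted p = 0.194), with differences of 0.09, 0.22 and 0.06 in the other paradigms and -0.15 in self-administration. Rrp8, a nucleolar methyltransferase, was at -0.24 ± 0.060 (limma adjusted p = 0.678). On the higher side were Mlec, a lectin of the endoplasmic reticulum (0.19 ± 0.056), Spata33 (0.40 ± 0.121), and Dnase1, a nuclease (0.25 ± 0.075), all at a limma adjusted p of 1.00. For Fgf20 the difference was 0.30 ± 0.228, since it was lower after cocaine in the other paradigms as well (-0.85, -0.66 and -0.88), so no departure was detected.

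In this contrast 51.1% of all genes were above 0, and in the acute, chronic and conditioning paradigms 50.5%, 48.8% and 50.3% of them lay below 0. By an unadjusted p under 0.05, 1.64% of all genes were lower in this contrast and 1.18% higher. Of the 21 sterol genes none was above 0, with 8 lower at an unadjusted p under 0.05 and a median of -0.16, where the medians were 0.00, 0.04 and 0.07 in the acute, chronic and conditioning paradigms. Hmgcs1 departed by -0.23 ± 0.083 and Insig1, which retains the pathway's activator in the endoplasmic reticulum, by -0.24 ± 0.106. Of the 19 clock genes 5 were above 0, with 4 lower at that limit and a median of -0.11. Those 4 were Cry2 (-0.24 ± 0.065), Per1 (-0.35 ± 0.098), Ciart (-0.42 ± 0.117) and Bhlhe41 (-0.12 ± 0.059). Glucocorticoid genes were above 0 in 4 of 24, with 6 lower at the limit and a median of -0.18, and the medians of the acute, chronic and conditioning paradigms were 0.05, 0.26 and 0.02. Sgk1, at 0.68 in the chronic paradigm, departed by -0.38 ± 0.120. ER chaperones were above 0 in 16 of 19, with 3 higher at the limit. None of these genes passed after adjustment over all genes, and each self-administration difference enters this contrast and the first comparison alike. In the first comparison the sterol count was 0 without saline library 1, and this contrast was not refitted without single libraries.

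**Figure D5:**
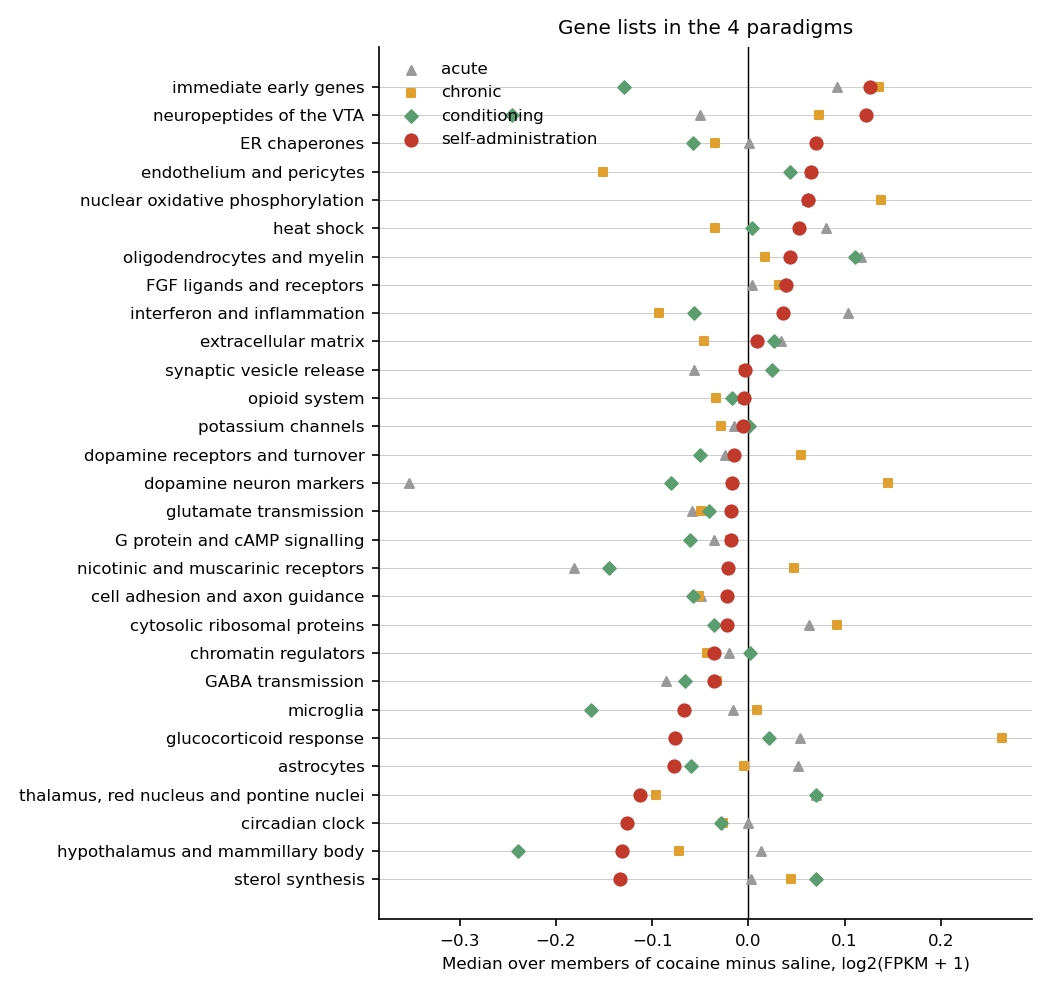
Each row is 1 gene list, and each mark the median over its tested members of the difference between cocaine and saline in log2(FPKM + 1), for the acute (triangle), chronic (square), conditioning (diamond) and self-administration (circle) paradigms. In self-administration the medians ran from -0.13 (sterol synthesis) to 0.13 (immediate early genes).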

How the data were processed

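RNA of the ventral tegmental area was sequenced, and per the submitters' processing notes the authors used Bowtie, Cuffnorm and the mm10 build. The deposited values are FPKM per gene symbol, normalized by the authors; whether counting used strand is not given in the sources used here. FPKM keeps no read counts, whole reads could not be recovered from low values, and depth is therefore unknown. Groups were taken from the labels through the column names.

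Values were converted to log2(FPKM + 1), genes averaging 1 FPKM or more were kept, and limma 3.58.1 (R 4.3.3, with trend and robust options) was fitted to the 24 libraries, with Benjamini-Hochberg adjustment over all tested genes and a threshold of 0.05. The fold limit was 1.3. The departure from the other paradigms came from 1 fit of 8 group means. The scripts were tested on simulated data. The level of a list averages log2(FPKM + 1) across its genes.

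Named genes were those with the smallest p per direction, alone and with a 1.3-fold limit, 2 to 4 members of each described list by p, Th, Slc6a3, Slc18a2, Drd2, Fgf20, Fos, Sgk1 and Pmch, up to 3 per direction by p of the departure, and the 8 most variable. The members and lists were chosen with earlier results of these data known. The 29 of 40 lists described, further genes beyond that rule, the 4 libraries left out, the Pmch covariate and the promoters were chosen after their values were seen. Of the symbols, 95.7% matched the GENCODE M21 annotation (GRCm38), which gave positions and exon overlaps. Exons also overlapped on opposite strands for Cry2 (with D930015M05Rik), Shox2 (Rsrc1), Rrp8 (Ilk), Dnase1 (Trap1), Kcnab1 (A330015K06Rik) and Eif3j1 (Spg11). Promoters came from RefSeq (GRCm38.p6). Alternatives were other pseudocounts, filters, normalizations, limma options, library weights, ranks, covariates and leaving out each library. Mitochondrially encoded genes were not analysed here, and some genes are not reported here.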

Additional observations from a re-analysis of the deposited data

Results flagged for a closer look

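In 3 of the values tested for a library far from the others of its group (34 leading genes and 29 list levels, saline group of 9), the gap to the nearest library, divided by the group's range, exceeded Dixon's critical value at 95%. Chance gives about 1 in 20 groups. For Cck the ratio was 0.520542, from saline library 8 at 94.0 FPKM. For the opioid system list it was 0.523938, from saline library 4 with a level of 3.62, the library in which the pituitary gene Gh reached 701 FPKM. For the list of oligodendrocytes and myelin it was 0.51847, from saline library 2 with a level of 6.93.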

How the results depend on the processing

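No gene passed the adjusted threshold without any single library (lowest limma adjusted p 0.392), while genes at an unadjusted p under 0.05 ranged from 303 to 923 and those also past 1.3-fold from 19 to 47. With library weights 1 gene passed (Spata33), and with the fit of 8 groups 2 did. The count of 450 became 783 without a filter, 3234 with library weights, 211 with the hypothalamus covariate, 139 with Pmch and 996 with the fit of 8 groups. The count of 24 became 46 and 37 with pseudocounts of 0.1 and 0.5, 12 at a mean of at least 5 FPKM, 109 with weights, 14 with the hypothalamus covariate and 12 with Pmch. For the departure from the other paradigms, 1 gene passed with quantile normalization and 1 without trend and robust options; its 372 became 672 without a filter and 1632 with weights. Of 1523 values of named genes, 16 changed direction outside the fits that left out 1 library. Drd2 was at 0.00127 with size factors, 0.0790 with weights, 0.0252 with the dopamine covariate and 0.0718 without the 4 libraries. Slc18a2 was at 0.0772 with weights, 0.0710 without the 4 libraries and 0.0110 with Pmch. With weights Myh11 was at -0.0244 and Sgk1 at 0.0975. With the hypothalamus covariate and with Pmch Foxa2 was at -0.0979 and -0.170, and Slc17a6 at -0.0174 and -0.0536. With Pmch Klk6 was at -0.00458, Stip1 at -0.00163 and Th at -0.00384. Leaving out 1 library gave ranges of -0.0585 to 0.103 for Drd2, -0.212 to 0.0261 for Slc18a2 and -0.0857 to 0.157 for Th. The cause was not tested. Of 435 list medians under other settings, 33 had the other sign, in 16 lists. Among them glucocorticoid genes moved from -0.08 to 0.10 and dopamine neuron markers from -0.02 to 0.10 with weights. The Pmch covariate and the fit without 4 libraries were added after seeing the data. No paired analysis was possible because the column numbers, counted from 0, match no replicate number given by the labels with certainty, so the replicate block was not run.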

Other observations

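Several genes, chosen because they were high there, peaked in cocaine library 0. Pvalb, a calcium buffer of fast-firing neurons, reached 368 FPKM, Scn4b, a sodium channel subunit, 120, Kcng4, a modulatory potassium channel subunit, 33.0, and Nefm and Nefh, the medium and heavy neurofilament subunits, 301 and 171. Reads of Nefm and Nefl could be shared, since their exons overlap on opposite strands. The mean levels of the potassium channel list (4.24) and of the sodium, calcium and HCN channel list (4.10) were not the highest in that library. Over the groups Pvalb differed by 0.52 (unadjusted limma p = 0.0741), Nefm by 0.42 (p = 0.0934) and Nefh by 0.45 (p = 0.0715). Slc17a7, a vesicular glutamate transporter of the forebrain, was at 27.9 FPKM and Hbb-bs, a globin, at 626 FPKM in cocaine library 6.

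The values of some housekeeping genes varied widely within both groups. Rps27, a ribosomal protein gene, ran from 4.27 to 1161 FPKM after cocaine and from 6.29 to 1307 after saline. Atp6v0c, a proton pump subunit, ran from 0.00119 to 255 and from 8.52 to 203. Eif3j1, an initiation factor subunit, ran from 0.0534 to 16.3 and from 0.0698 to 11.9. H2-Aa, Acan, a proteoglycan of perineuronal nets (0.22), and Hapln2, a link protein at nodes of Ranvier (0.29), were further genes at an unadjusted limma p under 0.05.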
